A study of Rattus norvegicus with 12 samples.

Results

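Cells of the rat nucleus pulposus, the soft hydrated centre of an intervertebral disc, were compared after exposure to 2 kinds of exosome in the absence of any ferroptosis inducer. The comparison was chosen by its labels: 3 RNA-seq libraries of cells given exosomes in which miR-221-3p was overexpressed (miR-Exo) against 3 libraries of cells given exosomes without that addition (NPPC-Exo), which makes 6 of the 12 libraries of the study. Both kinds came from nucleus pulposus progenitor cells and were added to the medium at 50 µg/mL, so every library was of cells that received exosomes and none was of cells left without them. The cells grew in DMEM/F12 medium with serum, and the labels give no time of exposure to exosomes, no animal, no age and no sign of whether the libraries of a group were separate cultures. In the other 6 libraries the same 2 kinds of exosome were given to cells that also received erastin, which blocks cystine import, at 0.1 to 5 µM for 48 h. These libraries share no sample with the comparison, although they entered the same fit and its estimate of spread. They are used below to show how its genes behaved in other samples.

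Exosomes are small vesicles that cells release and that carry proteins and RNA, microRNAs among them, to other cells. A microRNA guides Argonaute proteins to messenger RNAs that pair with its seed, the bases near its 5′ end, and such messengers are usually translated less and degraded faster. miR-221-3p is known from other cells as a repressor of cell cycle inhibitors such as Cdkn1b (p27), and the study links it to ferroptosis, a form of cell death in which iron drives the peroxidation of membrane lipids and which glutathione, made from imported cystine, holds back.

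The mature sequences are shown because the seed defines what this microRNA can pair with. They were taken from RefSeq (GRCr8), with the seed, bases 2 to 8, in capitals.
rno-miR-221-3p: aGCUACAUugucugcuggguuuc
rno-miR-222-3p: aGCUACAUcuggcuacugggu
rno-miR-221-5p: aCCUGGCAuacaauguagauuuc
Of the 724 mature microRNAs in the table, only miR-221-3p and miR-222-3p carried the seed GCUACAU, so a gene with a site for one has a site for the other. The gene Mir221 lies on chromosome X at chrX:6023182-6023290 (GRCr8, + strand), and its hairpin is shown next with the miR-221-3p arm in capitals, since it is the hairpin gene, and not the mature strand, to which RNA-seq reads were assigned.
Mir221 hairpin: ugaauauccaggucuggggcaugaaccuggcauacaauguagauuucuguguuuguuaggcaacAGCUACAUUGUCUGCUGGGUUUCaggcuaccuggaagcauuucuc

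Reads on Mir221 separated the groups as their labels say. It had 17, 17 and 17 counts with NPPC-Exo and 1686, 1524 and 1752 with miR-Exo. As CPM, counts relative to the scaled library size, these were 0.303, 0.320 and 0.307 CPM with NPPC-Exo and 29.1, 26.4 and 27.6 CPM with miR-Exo, a log2 fold change of 6.47 ± 0.12 (SE, adjusted p = 3.27e-12). No pair of libraries from the 2 groups came near each other. Mir222, the neighbouring microRNA gene with the same seed, had 2, 3 and 3 counts with NPPC-Exo and 3, 1 and 2 with miR-Exo, which is at or under the floor of 3 counts and gives no fold. Of 55 microRNA genes with enough counts to test, 4 changed. Libraries of fragmented RNA do not measure the mature strand, and whether the added reads were exosome cargo or transcripts of the recipient cells was not tested.

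The 6 libraries held 60480706 to 68865720 counts each, and 3 counts, the floor used for a gene at 0, correspond to 0.0472 to 0.0565 CPM. Principal component 1 of the 6 libraries, with 31.3% of the variance, separated the exosome kinds, while component 2, with 21.0%, set the library numbered 1 of each group apart from the others of its group. Aggrecan (Acan, means of 775 and 841 FPKM), the main proteoglycan of the disc core, and type II collagen (Col2a1, means of 190.0 and 201 FPKM) were abundant per length. Of 16 nucleus pulposus and chondrocyte markers listed, 13 were in the table, and 9 of these had over 1 FPKM in the 6 libraries. Col11a2, Ca12, Krt18 and Foxf1 were under 1 FPKM, and Krt19, Tbxt and Shh were not in the table. Col1a1, the main collagen of fibrous tissue, was higher still (means of 3923 and 4542 FPKM). Of 8 annulus and fibroblast markers in the table, 7 had over 1 FPKM. Thy1 was abundant (means of 554 and 468 FPKM), while Dcn (1.60 and 2.24 FPKM) and Scx (1.23 and 2.80 FPKM) were low. Markers of lymphocytes and red cells were at or near 0, those of fat cells were under 1 FPKM on the mean of the 6 libraries, and Aif1 of macrophages, Cd3g, Cd79b and Hba-a2 had no counts.

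The added microRNA went with many small differences between the 2 groups. Of 15650 genes tested, 1669 (10.7%) passed an adjusted p of 0.05, with 649 (4.15%) higher and 1020 (6.52%) lower with miR-Exo. Changes of at least 2-fold were few: 213 genes (1.36%), of which 147 were higher and 66 lower. Falling genes were the more abundant, with a median of 66.7 CPM in the NPPC-Exo libraries against 17.4 CPM for rising genes and 13.2 CPM over all genes tested. Their median log2 fold changes were 0.51 and -0.35, against 0 over all genes. Of the 1669 genes, 1648 had groups that did not overlap in CPM, which held for 28.8% of all genes tested. In bulk RNA, fewer cells of a kind and less RNA per cell cannot be told apart, and this holds for every difference below.

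The number of genes called rested in part on single libraries and its direction on the scaling. Without NPPC-Exo library 2 the count was 970, and without miR-Exo library 2 it was 1042. With only the 6 libraries fitted, without the erastin libraries, it was 1129, with 420 higher and 709 lower. With scaling by library size alone, 1840 genes passed, but 1264 of them were higher and 576 lower (68.7% higher, against 38.9%), since that scaling moved the median of all genes up by 0.08 on the log2 scale. With the replicate number as a block in the 6 libraries alone 736 were higher and 765 lower. The deposited FPKM, tested on a log2 scale with a pseudocount of 1, gave 1643 genes, 67.3% of them higher. Small differences of either sign are therefore read below relative to the bulk of all genes. Counts or medians under library size alone are given for many lists, and a count printed without them may move too.

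**Figure D1:**
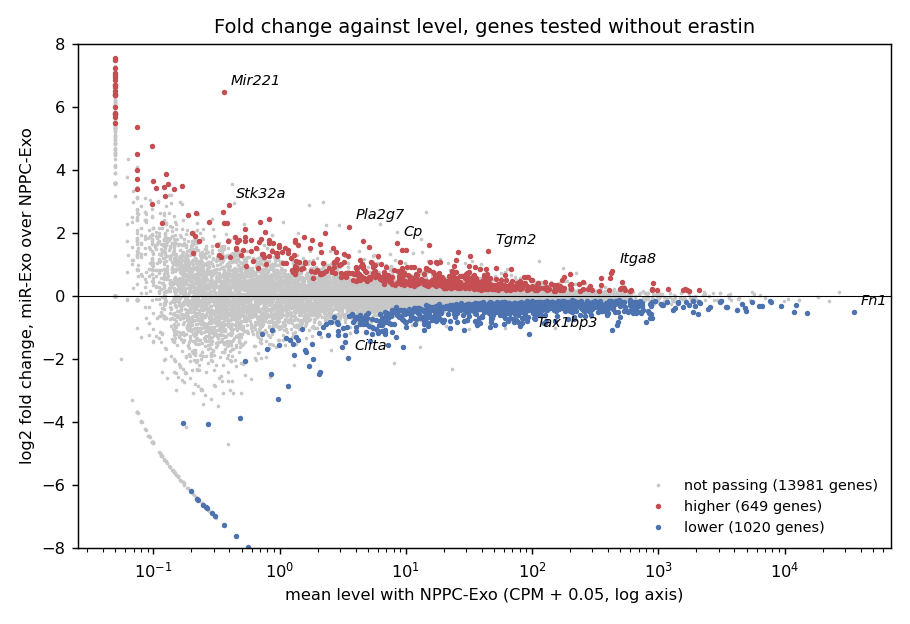
Log2 fold change of miR-Exo over NPPC-Exo (vertical axis) against the mean CPM of the 3 NPPC-Exo libraries plus 0.05 (horizontal log axis) for the genes tested, with the 649 higher genes in red, the 1020 lower genes in blue and the others in grey. Falling genes lie further right than rising genes, and the points at the left edge have no counts in the NPPC-Exo libraries, so their fitted folds are not measurements of size. The axis leaves out 7 genes beyond 8 log2 units.

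Rising genes other than Mir221 were ranked by fold among those that passed with a symbol that is not a placeholder and groups without overlap. With a mean of at least 2 CPM in the miR-Exo libraries also required, the largest folds belonged to genes of low level with varied functions. Pla2g7 encodes a secreted phospholipase A2 that hydrolyses platelet-activating factor and oxidised phospholipids. It was at 3.64, 2.94 and 3.85 CPM with NPPC-Exo and 13.4, 19.0 and 15.7 CPM with miR-Exo (log2 fold change 2.20 ± 0.16, adjusted p = 5.3e-06), and every miR-Exo library lay more than 3-fold above every NPPC-Exo library. Trim63, the muscle ubiquitin ligase MuRF1, was at 0.731, 0.697 and 0.904 CPM with NPPC-Exo and 3.90, 4.86 and 4.09 CPM with miR-Exo (log2 fold change 2.46 ± 0.34, adjusted p = 0.000582). Dusp4, a phosphatase that switches off MAP kinases, was at 1.19, 0.998 and 1.66 CPM with NPPC-Exo and 4.90, 3.41 and 4.87 CPM with miR-Exo (1.77 ± 0.27). Gem, a small GTPase that restrains calcium channels, was at 1.35, 1.83 and 2.12 CPM with NPPC-Exo and 5.50, 6.40 and 6.33 CPM with miR-Exo (1.78 ± 0.19). In each of these the groups did not overlap, which was a condition of the choice and not a result. The neural cell adhesion gene Nrcam rose by 1.87 ± 0.20, the desmosome gene Dsp by 2.05 ± 0.27, the nuclear pore gene Nup210 by 2.34 ± 0.33, the kinase gene Stk32a by 2.88 ± 0.42, the cilium gene Tekt1 by 2.12 ± 0.29 and Creg1 by 1.78 ± 0.20. Gdf15, a secreted stress signal, had the widest spread of the set, at 4.14, 1.36 and 1.23 CPM with NPPC-Exo and 12.0, 9.24 and 5.92 CPM with miR-Exo (2.01 ± 0.53, adjusted p = 0.0291). Gdf15 did not pass without NPPC-Exo library 2, NPPC-Exo library 3, miR-Exo library 1 or miR-Exo library 2 (adjusted p = 0.114, 0.0989, 0.0929 and 0.0709, in that order).

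The largest falls, ranked in the same way with at least 2 CPM in the NPPC-Exo libraries, were again of genes at a few CPM, with a single abundant exception. Tax1bp3, a small PDZ protein that inhibits beta-catenin and PDZ scaffolds, was at 89.7, 95.1 and 101 CPM with NPPC-Exo and 37.9, 44.6 and 40.6 CPM with miR-Exo (log2 fold change -1.22 ± 0.07, adjusted p = 1.19e-06). The 2 groups were far apart, with the highest miR-Exo library below every NPPC-Exo library by more than 2-fold. Ciita, the master activator of class II antigen presentation genes, was at 3.30, 2.79 and 4.14 CPM with NPPC-Exo and 0.725, 0.917 and 0.992 CPM with miR-Exo (-1.95 ± 0.23, adjusted p = 0.000188). Krt7, a simple-epithelium keratin, was at 9.47, 10.5 and 8.65 CPM with NPPC-Exo and 2.92, 3.72 and 2.69 CPM with miR-Exo (-1.62 ± 0.23), and the sialyltransferase gene St6galnac3 was at 8.50, 8.19 and 8.43 CPM with NPPC-Exo and 3.09, 3.44 and 3.56 CPM with miR-Exo (-1.32 ± 0.20). The groups did not overlap in any of these, again a condition of the choice. Innate receptor genes were among the largest falls, with Tlr5, the flagellin receptor, changed by -1.61 ± 0.21 and Cd180, a Toll-like receptor homologue, by -1.24 ± 0.18. Dmrt2 changed by -1.45 ± 0.24, Frmd5 by -1.23 ± 0.23 and the placental prolactin family gene Prl8a9, which has close copies that can share reads, by -1.54 ± 0.14. Rows for 7SL RNA (Rn7sl1, -2.41 ± 0.49) also fell, but 7SL has many near-identical copies and its values are uncertain.

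Genes at 10 CPM or more in the NPPC-Exo libraries rarely moved by 2-fold: of 8535 such genes, 395 were higher and 894 lower, and 9 and 5 of these reached 2-fold. These 14 were looked up after their values were seen. Tgm2, the tissue transglutaminase that cross-links extracellular matrix proteins, was at 43.1, 45.2 and 45.6 CPM with NPPC-Exo and 120.3, 123 and 118 CPM with miR-Exo (log2 fold change 1.43 ± 0.06, adjusted p = 9.91e-08), a rise of 2.70-fold with little spread within a group. Gadd45a, a growth-arrest and DNA-damage gene, was at 18.3, 16.9 and 17.1 CPM with NPPC-Exo and 33.7, 38.4 and 39.3 CPM with miR-Exo (1.09 ± 0.08, adjusted p = 5.43e-06). Gucy1a1, a subunit of the soluble guanylate cyclase that senses nitric oxide, was at 30.1, 34.1 and 33.3 CPM with NPPC-Exo and 76.0, 74.8 and 84.8 CPM with miR-Exo (1.27 ± 0.15). Cemip, which takes part in the breakdown of hyaluronan, the polymer that aggrecan binds in the disc, was at 13.1, 17.3 and 16.3 CPM with NPPC-Exo and 32.6, 31.8 and 35.6 CPM with miR-Exo (1.10 ± 0.12). The groups of these 4 genes did not overlap, nor did those of the ephrin receptor gene Epha4 (1.08 ± 0.13) and of Arnt2 (1.05 ± 0.09), a partner of basic helix-loop-helix factors. On the falling side Wls, the carrier that takes Wnt proteins to the cell surface, was at 401, 430.4 and 450.3 CPM with NPPC-Exo and 196, 199 and 214 CPM with miR-Exo (-1.07 ± 0.05, adjusted p = 2.2e-07). Prune1 was at 26.6, 29.4 and 31.1 CPM with NPPC-Exo and 13.8, 13.6 and 13.5 CPM with miR-Exo (-1.09 ± 0.10), and the kinase gene Stk26 fell by 1.01 ± 0.12. The groups of Wls and Prune1 did not overlap and the miR-Exo libraries of Prune1 were nearly equal.

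**Figure D2:**
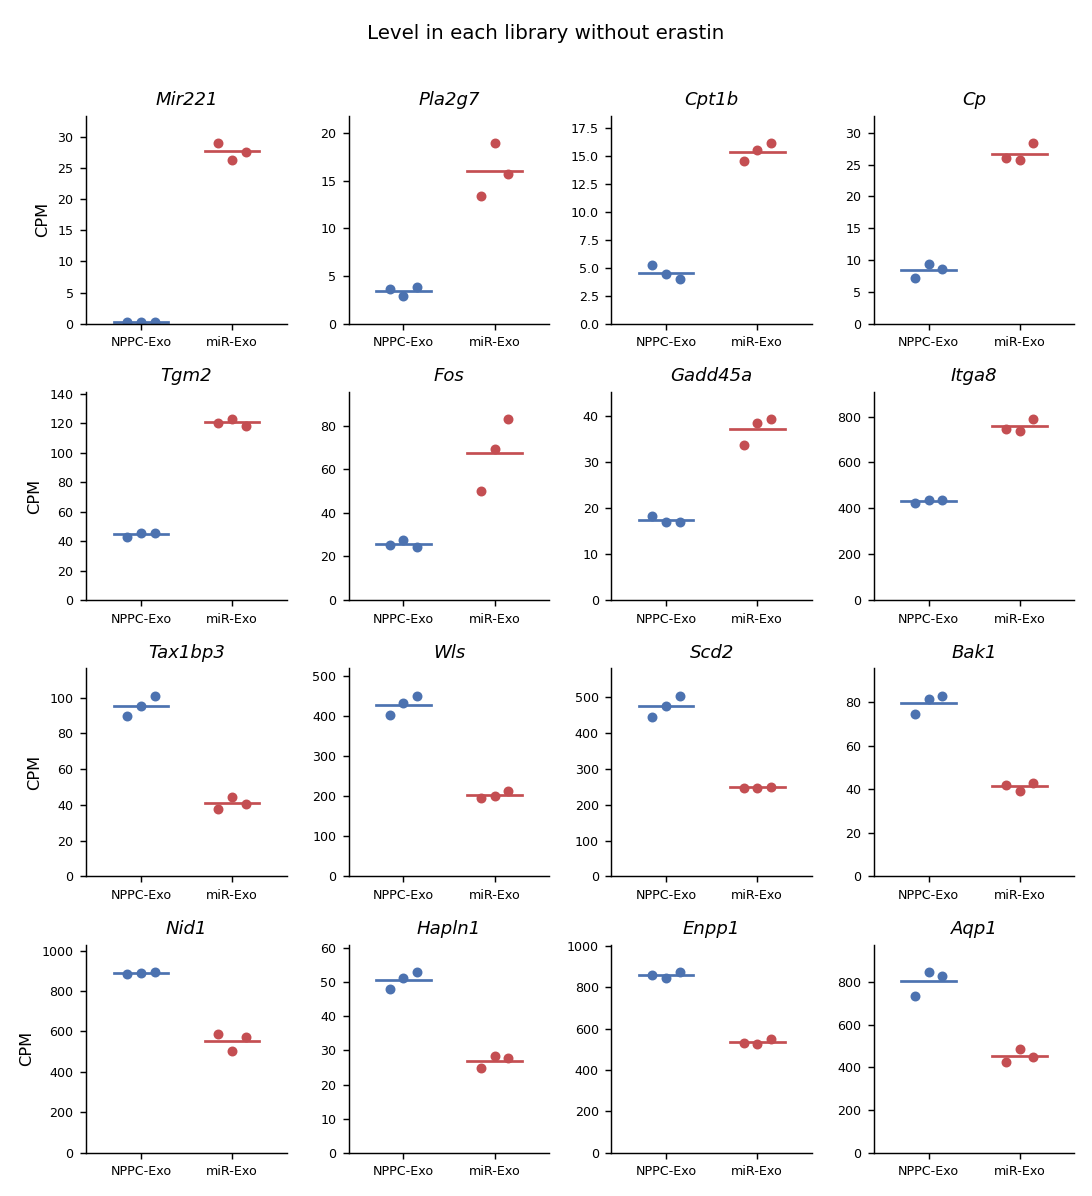
CPM (vertical axes from 0, a scale per gene) of 16 genes in the 3 NPPC-Exo (blue) and 3 miR-Exo (red) libraries without erastin, with a line at each group mean. The first 8 genes rose and the other 8 fell, and in every panel the points of the 2 groups do not overlap.

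Genes were then read by function, in lists that are described by how many members passed the test and by their median, next to 10.7% and a median of 0 for all genes. Genes of fatty acid oxidation and targets of the lipid-sensing PPAR factors rose without exception among those called: 7 of 25 were higher and 0 lower (median 0.22, and 11 higher with scaling by library size alone). Cpt1b, which carries long-chain fatty acids into mitochondria, was at 5.22, 4.42 and 3.94 CPM with NPPC-Exo and 14.5, 15.5 and 16.1 CPM with miR-Exo (log2 fold change 1.76 ± 0.13, adjusted p = 5.3e-06). Pdk4, which closes pyruvate dehydrogenase and turns cells from glucose to fat, was at 6.33, 6.66 and 5.05 CPM with NPPC-Exo and 15.3, 12.1 and 15.7 CPM with miR-Exo (1.26 ± 0.12, adjusted p = 3.74e-05), and the acyl-CoA thioesterase gene Acot2 was at 6.13, 6.76 and 6.11 CPM with NPPC-Exo and 11.3, 13.1 and 14.1 CPM with miR-Exo (1.02 ± 0.15). All miR-Exo libraries of these 3 genes were above all NPPC-Exo libraries. Plin2, the coat protein of lipid droplets, rose by 0.37 ± 0.06. The PPAR element, AGGTCA and again AGGTCA with 1 base between, was searched in the 250 bases before the start. It was in 0 of 18 promoters of the list matched to RefSeq and in 0.0272% of those of genes tested.

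In lipid synthesis 8 genes of 2 lists fell and 1 rose, and most members did not pass. Scd2, the desaturase that makes monounsaturated fatty acids, was at 443, 474 and 505 CPM with NPPC-Exo and 247, 248 and 249 CPM with miR-Exo (-0.93 ± 0.06, adjusted p = 1.19e-06), and the 3 miR-Exo libraries were nearly equal to each other. Fasn, fatty acid synthase, was at 376, 393 and 351 CPM with NPPC-Exo and 310.4, 293 and 316 CPM with miR-Exo (-0.29 ± 0.05). In the list of fatty acid and triglyceride synthesis 2 of 18 fell and 1 rose (median 0.03), 2 fell and 3 rose when scaled by library size alone, and with the replicate number as a block 0 rose over all 12 libraries and 2 rose in the 6. Of 25 cholesterol synthesis genes, targets of the sterol sensor SREBP2, 6 were lower and 0 higher (median -0.09). Hmgcs1, an early enzyme of the pathway, was at 277, 293 and 294 CPM with NPPC-Exo and 191, 216 and 201 CPM with miR-Exo (-0.51 ± 0.07, adjusted p = 0.000741), and Idi1, an enzyme of isoprenoid synthesis, was at 78.7, 79.6 and 87.7 CPM with NPPC-Exo and 55.4, 61.1 and 55.6 CPM with miR-Exo (-0.52 ± 0.06, adjusted p = 0.000165). The groups did not overlap in either gene. The count of 6 was 3 without miR-Exo library 1, and 2 with 1 higher when scaled by library size alone, and with the replicate number as a block 1 gene was higher over all 12 libraries and 2 in the 6. The sterol element TCACNCCAC was in 0 of 17 matched promoters of the cholesterol list and in 0.997% of those of genes tested.

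Among iron genes, ceruloplasmin, ferroportin and the ferritin heavy chain were higher and the transferrin receptor lower, while most members of the iron lists did not pass. Cp, ceruloplasmin, the ferroxidase that readies exported iron for binding by transferrin, was at 7.15, 9.45 and 8.63 CPM with NPPC-Exo and 26.0, 25.8 and 28.4 CPM with miR-Exo (log2 fold change 1.67 ± 0.09, adjusted p = 6.02e-07). Slc40a1, ferroportin, the known cellular exporter of iron, was at 2.51, 2.45 and 2.93 CPM with NPPC-Exo and 5.40, 6.02 and 5.09 CPM with miR-Exo (1.06 ± 0.14, adjusted p = 0.000361), and an adjacent row with the placeholder name NEWGENE_620180 changed by 1.09 ± 0.11. How reads were divided between those rows is not given. Fth1, the ferritin heavy chain that stores iron, was at 169.5, 172 and 192 CPM with NPPC-Exo and 323, 263 and 220.9 CPM with miR-Exo (0.60 ± 0.10, adjusted p = 0.00264). The groups did not overlap in any of the 3, although Fth1 varied widely among the miR-Exo libraries and has many processed pseudogenes that can share its reads. Tfrc, the transferrin receptor that brings iron in, was at 91.7, 107 and 113 CPM with NPPC-Exo and 77.4, 75.6 and 82.6 CPM with miR-Exo (-0.40 ± 0.07, adjusted p = 0.00294), and its groups did not overlap either. By list, 3 of 14 genes of iron export and haem handling rose and 0 fell, and 5 and 0 when scaled by library size alone. Of 20 genes of uptake, storage and sensing 1 rose and 4 fell (median 0.03). The 4 falls became 2 without NPPC-Exo library 2, miR-Exo library 1, miR-Exo library 3 or the library numbered 1 of both groups, 1 (with 2 rises) when scaled by library size alone, and 1 with the replicate number as a block in the 6 libraries.

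The cystine importer fell. Slc7a11, the transporter that erastin blocks, was at 34.9, 36.9 and 36.6 CPM with NPPC-Exo and 23.6, 24.4 and 24.4 CPM with miR-Exo (log2 fold change -0.58 ± 0.07, adjusted p = 0.00034), and the groups did not overlap. Of 20 genes of cystine import, glutathione and ferroptosis defence 2 rose and 3 fell, with a median that turned from -0.07 to 0.00 when scaled by library size alone, and neither rise passed without miR-Exo library 2. Chac1, which degrades glutathione, was at 28.4, 21.9 and 30.0 CPM with NPPC-Exo and 33.4, 37.0 and 38.5 CPM with miR-Exo (0.44 ± 0.12, adjusted p = 0.0303). Chac1 did not pass without NPPC-Exo library 2, miR-Exo library 2 or miR-Exo library 3 (adjusted p = 0.108, 0.0886 and 0.0955, in that order). With only the 6 libraries fitted it did not pass either (adjusted p = 0.0665). Gpx4, the glutathione peroxidase that repairs lipid peroxides, was at 36.5, 66.3 and 44.3 CPM with NPPC-Exo and 39.2, 50.4 and 44.4 CPM with miR-Exo and did not pass (-0.13 ± 0.20, adjusted p = 0.728), its groups overlapped, and the sign turned without NPPC-Exo library 2 (0.14). Acsl4, which puts polyunsaturated fatty acids into membranes, was at 186, 189 and 192 CPM with NPPC-Exo and 181, 195 and 189.7 CPM with miR-Exo and did not pass either (-0.01 ± 0.06, adjusted p = 0.973), with a sign that turned when scaled by library size alone (0.08). Among targets of the antioxidant factor NRF2, 5 of 28 rose and 0 fell (median 0.15). The glutathione transferase gene Gsta1 was at 17.1, 20.2 and 18.3 CPM with NPPC-Exo and 26.9, 30.1 and 27.9 CPM with miR-Exo (0.61 ± 0.09) and the autophagy receptor gene Sqstm1 at 226, 231 and 246 CPM with NPPC-Exo and 295, 316 and 305 CPM with miR-Exo (0.38 ± 0.07). The 5 rises became 3 without NPPC-Exo library 1, NPPC-Exo library 2 or miR-Exo library 2, 2 without miR-Exo library 3, and 11 when scaled by library size alone.

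**Figure D3:**
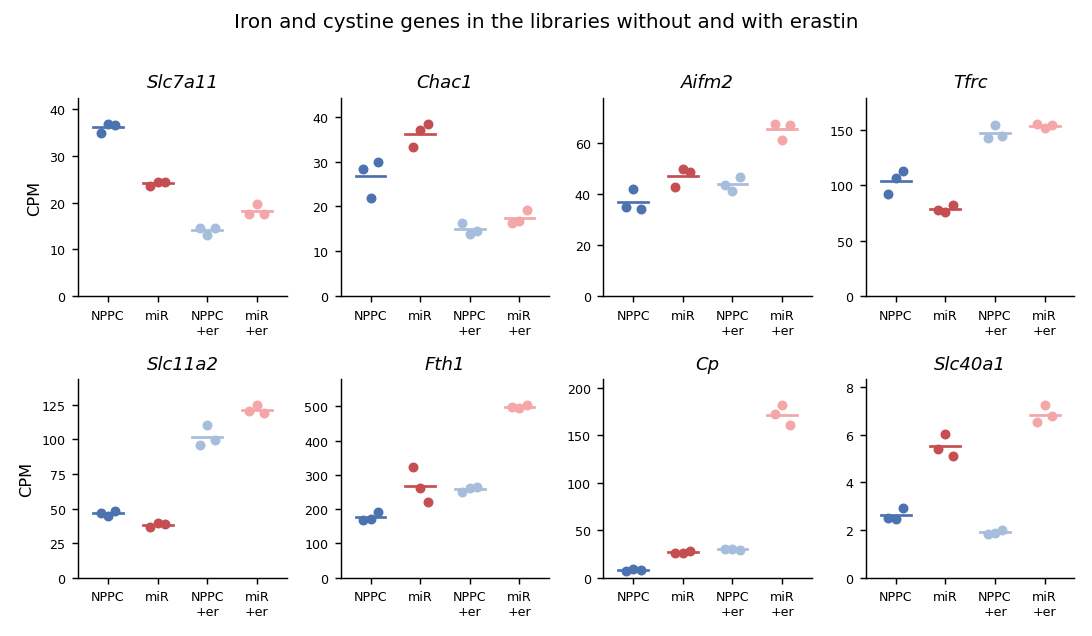
CPM (vertical axes from 0) of 8 iron and cystine genes in the libraries without erastin (NPPC, miR) and with erastin (+er), 3 libraries a group with a line at the mean. Without erastin Slc7a11, Tfrc and Slc11a2 were lower and Fth1, Cp and Slc40a1 higher in every miR-Exo library, and with erastin Slc7a11 and Slc11a2 were higher.

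The amino acid stress programme driven by ATF4 was the list with the most rises. Of 36 targets 11 were higher and 2 lower (median 0.15), and 14 and 2 when scaled by library size alone. Atf3, a stress-induced factor, was at 8.63, 9.60 and 9.48 CPM with NPPC-Exo and 22.3, 27.1 and 26.3 CPM with miR-Exo (log2 fold change 1.45 ± 0.11, adjusted p = 5.93e-06). Sesn2, a sensor that restrains mTOR, was at 82.5, 78.8 and 80.5 CPM with NPPC-Exo and 113, 107 and 115 CPM with miR-Exo (0.47 ± 0.05, adjusted p = 0.000141). All miR-Exo libraries of both were above all NPPC-Exo libraries. The 2 targets that fell were amino acid transporters, Slc7a11 and Slc7a5, the latter at 399.6, 384 and 403 CPM with NPPC-Exo and 298, 279 and 304 CPM with miR-Exo (-0.43 ± 0.05). The 11 rises became 6 without NPPC-Exo library 2 and 7 without miR-Exo library 1. The ATF4 element TGATGNAA, on either strand of the 250 bases before the start, was present in 6 of 31 matched promoters of the list (19.4%). It was in 3.27% of all 27457 promoters of the table and in 1.89% of those of genes tested. It is printed for Trib3 (0.72 ± 0.18), a pseudokinase gene, and for Chac1, both higher, with the match in capitals (RefSeq, GRCr8). The genes of the other 4 promoters with the element did not pass (adjusted p = 0.470 to 0.949).
Trib3, chr3:161275534-161275574, - strand: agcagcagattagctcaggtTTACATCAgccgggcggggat
Chac1, chr3:126795944-126795991, + strand: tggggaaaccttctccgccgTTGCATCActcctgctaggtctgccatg
A match is a description of these letters and not of binding. Trib3 did not pass without NPPC-Exo library 2, NPPC-Exo library 3, miR-Exo library 1 or miR-Exo library 2 (adjusted p = 0.0567, 0.0741, 0.0623 and 0.0645, in that order). The libraries on which the call of Chac1 rested are given above (adjusted p = 0.0303 with all libraries).

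Among chaperones of the endoplasmic reticulum, where secreted matrix proteins fold, every call was a fall, and among those of the cytosol and mitochondria every call was a rise. Of 31 genes of the endoplasmic reticulum and its stress response 0 were higher and 9 lower (median -0.16). Pdia6, a disulphide isomerase, was at 771, 859 and 884 CPM with NPPC-Exo and 558, 585 and 569 CPM with miR-Exo (log2 fold change -0.55 ± 0.05, adjusted p = 1.68e-05). Hyou1, a chaperone of the HSP70 family, was at 424, 439.9 and 448 CPM with NPPC-Exo and 333, 319 and 329.7 CPM with miR-Exo (-0.42 ± 0.05, adjusted p = 9.25e-05). Both genes had groups that did not overlap. Hsp90b1, the HSP90 of this compartment, was at 2087, 2172 and 2218 CPM with NPPC-Exo and 1857, 1856 and 1877 CPM with miR-Exo (-0.21 ± 0.04), a small fall of an abundant gene, and Pdia3 at 996, 1036 and 1095 CPM with NPPC-Exo and 885, 884 and 882 CPM with miR-Exo (-0.24 ± 0.04). The 9 falls became 5 without miR-Exo library 2 and 4, with 1 rise, when scaled by library size alone. On the deposited FPKM, tested by limma as log2(FPKM + 1), 2 genes fell and 1 rose. Neither Hsp90b1 nor Pdia3 passed there (adjusted p = 0.121 and 0.0756).

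Promoters of this list were searched for the ER stress element, CCAAT and CCACG with 9 bases between, which includes the core CCACG. It was in 9 of 24 matched promoters (37.5%), in 19 of all 27457 (0.0692%) and in 16 of the 11034 of genes tested (0.145%). Among matched promoters it was in 6 of the 800 of falling genes (0.75%), which include members of this list. For rising genes it was in 1 of 493 (0.203%). Stretches of the promoters of Calr and Hsp90b1, which fell, and of Hspa5, which did not pass (-0.05 ± 0.04, adjusted p = 0.505, and 0.03 when scaled by library size alone), are shown with their matches on either strand in capitals (RefSeq, GRCr8).
Calr, chr19:40213117-40213173, + strand: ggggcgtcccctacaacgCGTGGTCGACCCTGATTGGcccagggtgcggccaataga
Hsp90b1, chr7:23012327-23012489, - strand: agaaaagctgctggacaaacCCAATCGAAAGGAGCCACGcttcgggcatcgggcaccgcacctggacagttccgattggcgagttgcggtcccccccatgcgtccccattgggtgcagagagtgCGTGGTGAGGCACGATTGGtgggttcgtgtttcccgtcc
Hspa5, chr3:38452953-38453011, + strand: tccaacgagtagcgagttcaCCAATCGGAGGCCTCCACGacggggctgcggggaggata
Of the 9 genes with the element 4 fell and 5 did not pass. Calr, the calcium-binding chaperone calreticulin, was at 1843, 1845 and 1942 CPM with NPPC-Exo and 1714, 1651 and 1684 CPM with miR-Exo (-0.16 ± 0.04, adjusted p = 0.0174) with groups that did not overlap. Calr did not pass without NPPC-Exo library 3 or miR-Exo library 2 (adjusted p = 0.056 and 0.0689, in that order). It did not pass when scaled by library size alone either (adjusted p = 0.183), nor with only the 6 libraries fitted (0.0517). On log2(FPKM + 1), tested by limma, the adjusted p was 0.345.

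Of 27 heat-shock proteins and co-chaperones 7 were higher and 0 lower (median 0.18), and 10 and 0 when scaled by library size alone. Hspb8, a small heat-shock protein that works with autophagy, was at 51.1, 53.5 and 52.1 CPM with NPPC-Exo and 91.2, 103 and 98.4 CPM with miR-Exo (log2 fold change 0.90 ± 0.08, adjusted p = 1.5e-05), so its groups were far apart. Hsp90ab1, a cytosolic HSP90, was at 1140.1, 1189 and 1228 CPM with NPPC-Exo and 1329, 1407 and 1383 CPM with miR-Exo (0.21 ± 0.04), and Hspa9, the HSP70 of mitochondria, at 483, 495 and 525 CPM with NPPC-Exo and 582, 582 and 584 CPM with miR-Exo (0.22 ± 0.05). These 2 rose by little, but no library of a group crossed into the other. The 7 rises became 4 without miR-Exo library 2 or miR-Exo library 3. The heat-shock element, GAA, TTC and GAA or the reverse order with 2 bases between, was in 4 of 21 matched promoters (19.0%). It was in 0.579% of all promoters and in 0.363% of those of genes tested. It is shown for Hspa8 (0.23 ± 0.06), a cytosolic HSP70, with both of its matches in capitals (RefSeq, GRCr8). The genes of the other 3 promoters with the element did not pass (adjusted p = 0.158 to 0.692).
Hspa8, chr8:50080281-50080491, + strand: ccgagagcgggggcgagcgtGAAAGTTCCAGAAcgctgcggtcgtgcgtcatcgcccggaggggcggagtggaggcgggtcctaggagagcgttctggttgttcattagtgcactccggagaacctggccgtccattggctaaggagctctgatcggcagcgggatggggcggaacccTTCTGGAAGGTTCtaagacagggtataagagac
Hspa8 did not pass without miR-Exo library 2 or miR-Exo library 3 (adjusted p = 0.0619 and 0.0605, in that order).

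**Figure D4:**
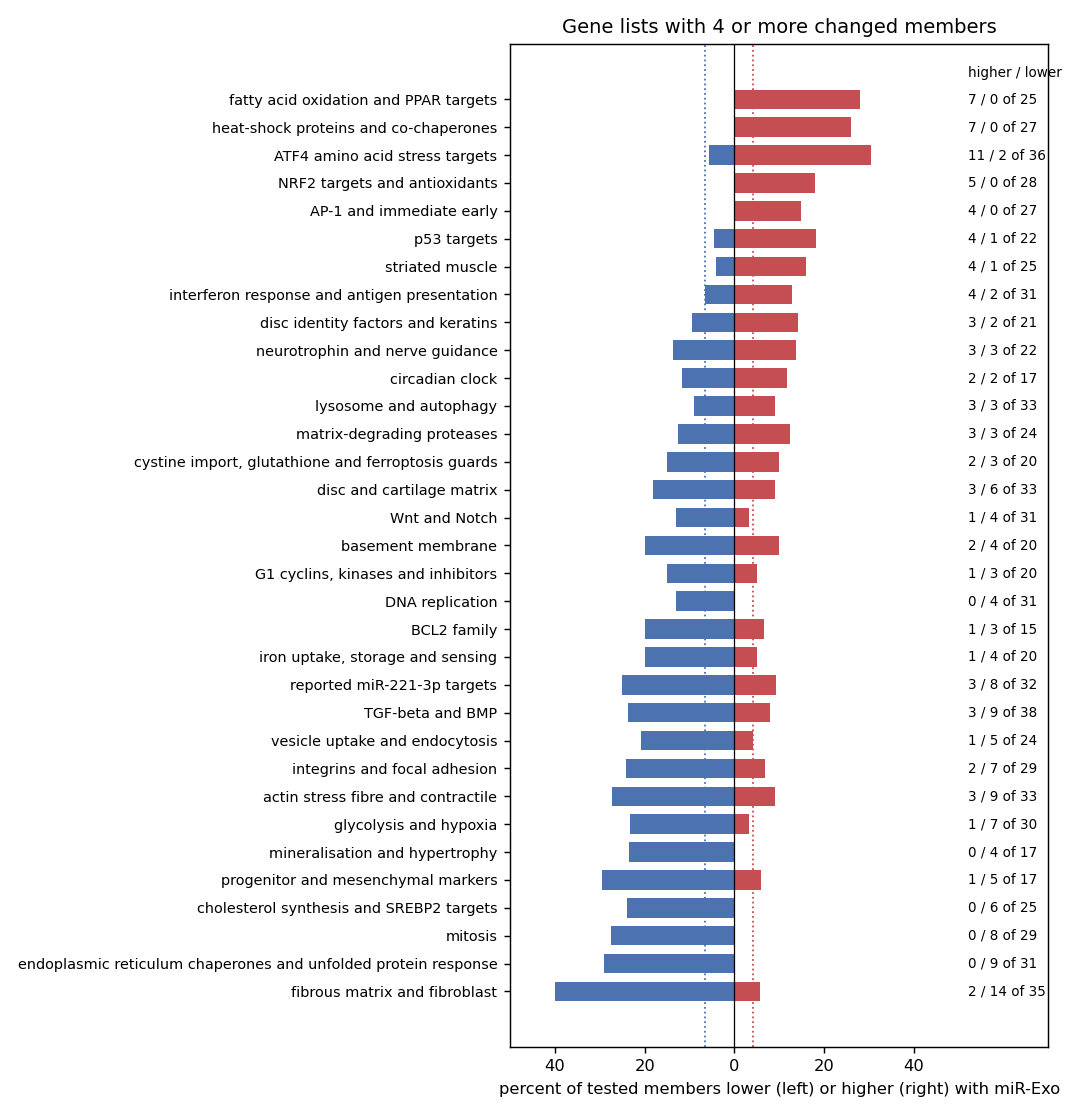
Percent of the tested members of 33 gene lists (rows, lists with 15 or more members tested and 4 or more changed) that were higher (red, right) or lower (blue, left) with miR-Exo, with the numbers at the right. Dotted lines mark 4.15% and 6.52%, the shares of all genes tested that were higher and lower.

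Of 29 mitosis genes 8 were lower and 0 higher (median -0.15), and of 20 genes of the G1 phase 3 were lower and 1 higher (median 0.07, 2 and 6 when scaled by library size alone, and 2 higher with the replicate number as a block, over all 12 libraries and in the 6). Kif20a, a kinesin of cytokinesis, was at 91.2, 90.7 and 88.8 CPM with NPPC-Exo and 74.6, 73.2 and 73.5 CPM with miR-Exo (log2 fold change -0.29 ± 0.04, adjusted p = 0.000725), and Ccnd1, cyclin D1, at 241, 272 and 258 CPM with NPPC-Exo and 182, 192 and 181 CPM with miR-Exo (-0.47 ± 0.06, adjusted p = 0.000504). The groups of both genes did not overlap. Among the mitosis genes the count became 3 without NPPC-Exo library 2, 5 without miR-Exo library 1, 4 without miR-Exo library 2 or 3, 4 without the library numbered 1 of both groups, 3 when scaled by library size alone and 5 with the replicate number as a block in the 6 libraries. On the deposited FPKM it was 1 as log2(FPKM + 1) and 2 as log2(FPKM + 0.1). Of the BCL2 family, which sets the threshold of apoptosis, 3 of 15 fell and 1 rose, and 2 and 2 when scaled by library size alone. Bak1, a pore-forming killer protein of mitochondria, was at 74.4, 81.5 and 83.0 CPM with NPPC-Exo and 42.0, 39.4 and 42.8 CPM with miR-Exo (-0.94 ± 0.06, adjusted p = 1.19e-06), and its groups were far apart. Bnip3, a mitophagy receptor induced by hypoxia, was at 99.4, 104 and 111 CPM with NPPC-Exo and 68.0, 75.1 and 73.8 CPM with miR-Exo (-0.53 ± 0.06).

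Genes that other studies have reported as targets of miR-221-3p did not move as a block. Of 32 tested, 8 were lower and 3 higher (median -0.10), and 6 and 5 when scaled by library size alone. Cdkn1b, the p27 inhibitor of cyclin-dependent kinases, was at 50.3, 34.4 and 34.7 CPM with NPPC-Exo and 27.6, 23.8 and 25.0 CPM with miR-Exo (log2 fold change -0.64 ± 0.13, adjusted p = 0.00868). Every miR-Exo library was below every NPPC-Exo library, among which library 1 was the highest. Its relative Cdkn1c, p57, also a reported target, was low and higher with miR-Exo, at 1.05, 0.433 and 0.579 CPM with NPPC-Exo and 1.73, 1.83 and 1.72 CPM with miR-Exo (1.35 ± 0.28, adjusted p = 0.00778), and passed no longer when only the 6 libraries were fitted (adjusted p = 0.0652, and 0.0545 with the replicate number as a block in them). Arf4, a small GTPase of Golgi traffic, was at 596, 629 and 661 CPM with NPPC-Exo and 428, 430.0 and 433 CPM with miR-Exo (-0.55 ± 0.04, adjusted p = 7.87e-06), and the transcription factor gene Ets1 at 134, 132 and 134 CPM with NPPC-Exo and 103, 101 and 106 CPM with miR-Exo (-0.36 ± 0.05). Both had separate groups. Usp18, which removes the ubiquitin-like ISG15, was at 5.83, 7.98 and 6.51 CPM with NPPC-Exo and 3.33, 3.36 and 2.91 CPM with miR-Exo (-1.08 ± 0.17). Fos went the other way, at 25.3, 27.4 and 24.4 CPM with NPPC-Exo and 49.8, 69.3 and 83.0 CPM with miR-Exo (1.39 ± 0.18, adjusted p = 0.000325), with all miR-Exo libraries above all NPPC-Exo libraries and a wide spread among them. Timp3, an inhibitor of metalloproteinases, was at 25.7, 22.9 and 24.5 CPM with NPPC-Exo and 22.7, 20.2 and 24.5 CPM with miR-Exo (-0.12 ± 0.12, adjusted p = 0.587) and did not pass, and its groups overlapped. In a separate list, of microRNA processing and silencing, 2 of 17 genes were lower and 0 higher, and 1 was lower when scaled by library size alone. That share of 11.8% is near the 10.7% of all genes. Drosha, the nuclease that cuts microRNA precursors out of their transcripts, was at 68.4, 70.2 and 72.1 CPM with NPPC-Exo and 61.1, 54.5 and 58.9 CPM with miR-Exo (-0.27 ± 0.05, adjusted p = 0.00689). No 3′ UTR sequence was used here, so seed sites were not searched.

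Among fibrous matrix and fibroblast genes 45.7% were called. Of 35 genes 14 were lower and 2 higher (median -0.16), and 9 and 2 when scaled by library size alone. Fn1, fibronectin, among the most abundant messengers of these cells, was at 36787, 36546 and 32611 CPM with NPPC-Exo and 25724, 23215 and 26007 CPM with miR-Exo (log2 fold change -0.50 ± 0.05, adjusted p = 6.27e-05). Thbs1, thrombospondin 1, which activates latent TGF-beta, was at 15234, 14917 and 14729 CPM with NPPC-Exo and 10586, 9589 and 10953 CPM with miR-Exo (-0.53 ± 0.06, adjusted p = 8.08e-05), and Tnc, tenascin C, at 12097, 12143 and 11594 CPM with NPPC-Exo and 8659.6, 8069.8 and 8769.6 CPM with miR-Exo (-0.49 ± 0.04, adjusted p = 1.5e-05). The miR-Exo libraries of the 3 genes were all below the NPPC-Exo libraries. Postn, periostin, was at 4716, 4815 and 5196 CPM with NPPC-Exo and 3339, 3433 and 3729 CPM with miR-Exo (-0.49 ± 0.05). Col1a1 did not pass, at 33044, 24544 and 23900.3 CPM with NPPC-Exo and 35612, 27210.3 and 26547 CPM with miR-Exo (0.13 ± 0.15, adjusted p = 0.638), and its groups overlapped, with library 1 of each group the highest. With the replicate number as a block in the 6 libraries Col1a1 passed as higher (adjusted p = 0.0136). The 14 falls became 9 without NPPC-Exo library 2, and the 2 rises became 4 with the block in the 6 libraries and 1 without NPPC-Exo library 2, NPPC-Exo library 3 or miR-Exo library 1.

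Of 33 actin stress fibre and contractile genes 9 were lower and 3 higher (median -0.10), 6 and 3 when scaled by library size alone, and 4 lower on the deposited FPKM. Acta2, smooth muscle actin, was at 11548, 12169.8 and 13108 CPM with NPPC-Exo and 10417, 10013 and 10129.9 CPM with miR-Exo (log2 fold change -0.27 ± 0.06, adjusted p = 0.0101), and Tagln, an actin-bundling protein, at 5711, 6339.5 and 6689 CPM with NPPC-Exo and 4880.2, 5176 and 5009 CPM with miR-Exo (-0.31 ± 0.07, adjusted p = 0.00877). Neither passed on the deposited FPKM (adjusted p = 0.199 and 0.125). Actg2, the enteric form of smooth muscle actin, was at 245, 271 and 275 CPM with NPPC-Exo and 169.5, 177 and 159.8 CPM with miR-Exo (-0.64 ± 0.08, adjusted p = 0.000256). Against these, Mylk, the kinase that switches on smooth muscle myosin, was at 379, 427 and 434 CPM with NPPC-Exo and 610.2, 618 and 617 CPM with miR-Exo (0.57 ± 0.07, adjusted p = 0.000167). All 4 genes had groups that did not overlap.

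Among integrins and focal adhesion genes 7 of 29 fell and 2 rose. When scaled by library size alone 5 fell and 3 rose, and the median of -0.04 turned to 0.04. Itgb1, the beta chain shared by most matrix-binding integrins, was at 4737, 4945 and 5012 CPM with NPPC-Exo and 3670.1, 3763 and 3852 CPM with miR-Exo (log2 fold change -0.38 ± 0.04, adjusted p = 0.000101). Itga8, which pairs with it to bind nephronectin and fibronectin, was at 424, 437 and 436 CPM with NPPC-Exo and 744, 736 and 789 CPM with miR-Exo (0.81 ± 0.05, adjusted p = 1.19e-06). These 2 partners thus moved in opposite directions, each with groups that did not overlap. In basement membrane genes 4 of 20 were lower and 2 higher (median 0.01), 3 and 3 when scaled by library size alone, and with the replicate number as a block 1 was higher over all 12 libraries and 4 in the 6 libraries alone. Nid1, nidogen, which links laminin to type IV collagen, was at 883, 887 and 894 CPM with NPPC-Exo and 585, 503 and 573 CPM with miR-Exo (-0.68 ± 0.06, adjusted p = 1.61e-05), Col4a3 at 80.5, 87.7 and 79.9 CPM with NPPC-Exo and 52.4, 52.5 and 49.7 CPM with miR-Exo (-0.68 ± 0.08) and Lama5, a laminin chain, at 228, 197 and 173 CPM with NPPC-Exo and 375, 292 and 314 CPM with miR-Exo (0.71 ± 0.15, adjusted p = 0.00892). Nid1 and Col4a3 were lower and Lama5 higher in every miR-Exo library.

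In the matrix that gives the disc core its swelling pressure, Acan and Col2a1 did not pass, while Hapln1 fell. Acan was at 6569.9, 6484 and 6114 CPM with NPPC-Exo and 7164, 6012 and 6528 CPM with miR-Exo (log2 fold change 0.04 ± 0.07, adjusted p = 0.774), Col2a1 at 1387, 857 and 831 CPM with NPPC-Exo and 1248, 930.4 and 906 CPM with miR-Exo (0.00 ± 0.20, adjusted p = 0.998) and Sox9, the factor that drives both, at 41.9, 28.7 and 29.4 CPM with NPPC-Exo and 41.9, 26.4 and 28.0 CPM with miR-Exo (-0.06 ± 0.19, adjusted p = 0.902). None passed, the groups overlapped in each, and library 1 was the highest of its group in each. For Col2a1 and Sox9, with SE of 0.20 and 0.19, not passing does not show the absence of a change. Hapln1, the link protein that locks aggrecan to hyaluronan, was at 48.0, 51.1 and 52.98 CPM with NPPC-Exo and 24.8, 28.3 and 27.9 CPM with miR-Exo (-0.91 ± 0.10, adjusted p = 0.000106), and Cd44, a hyaluronan receptor, at 377, 381 and 379 CPM with NPPC-Exo and 252, 271 and 288 CPM with miR-Exo (-0.49 ± 0.05, adjusted p = 0.000122). Both fell with groups apart. Over the whole list of disc and cartilage matrix, 6 of 33 were lower and 3 higher (median 0.04), a share of 27.3%. Its log2 fold changes ran from -1.35 to 1.61. Bgn, biglycan, a small proteoglycan, was at 6560.0, 6397 and 6917 CPM with NPPC-Exo and 5379, 5129 and 5627 CPM with miR-Exo (-0.30 ± 0.05).

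Protease genes moved in both directions and their inhibitors in 1. Of 24 matrix-degrading proteases 3 rose and 3 fell, with 9 rises and 2 falls when scaled by library size alone, 5 rises with the replicate number as a block over all 12 libraries and 6 in the 6, and 1 fall without any one of 4 libraries (NPPC-Exo 3 and miR-Exo 1, 2 and 3). Adamts15 was at 4.12, 3.29 and 2.89 CPM with NPPC-Exo and 9.19, 7.61 and 8.17 CPM with miR-Exo (log2 fold change 1.28 ± 0.24, adjusted p = 0.0052), while Adamts5, an aggrecanase, was at 39.7, 40.7 and 36.6 CPM with NPPC-Exo and 30.0, 28.5 and 29.9 CPM with miR-Exo (-0.40 ± 0.08, adjusted p = 0.00515). Their groups did not overlap. Of 13 protease inhibitors 5 were lower and 0 higher, although the list's median turned from -0.05 to 0.03 when scaled by library size alone. Timp1 was at 178, 194 and 211 CPM with NPPC-Exo and 135, 153 and 142 CPM with miR-Exo (-0.44 ± 0.07, adjusted p = 0.00138), Timp2 at 252, 259 and 274 CPM with NPPC-Exo and 215, 199.9 and 207 CPM with miR-Exo (-0.34 ± 0.06, adjusted p = 0.00295) and Serpinf1, pigment epithelium-derived factor, at 346, 328 and 398 CPM with NPPC-Exo and 238, 255 and 272 CPM with miR-Exo (-0.49 ± 0.07, adjusted p = 0.000696). In each of the 3 inhibitors every miR-Exo library was below every NPPC-Exo library. Plau, a plasminogen activator, was at 5.58, 5.42 and 6.15 CPM with NPPC-Exo and 7.16, 11.0 and 9.95 CPM with miR-Exo (0.71 ± 0.14).

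In the mineralisation and progenitor lists every call but 1 was a fall. Of 17 mineralisation and hypertrophy genes 4 were lower and 0 higher. Enpp1, which makes the mineralisation inhibitor pyrophosphate, was at 859, 844 and 874 CPM with NPPC-Exo and 530.1, 524 and 549.8 CPM with miR-Exo (log2 fold change -0.68 ± 0.05, adjusted p = 5.93e-06). Runx2, the master factor of bone formation, was at 63.9, 58.9 and 59.4 CPM with NPPC-Exo and 39.2, 36.2 and 37.3 CPM with miR-Exo (-0.69 ± 0.08, adjusted p = 0.000123), Spp1, osteopontin, at 3882, 4039 and 4577 CPM with NPPC-Exo and 2957, 3084 and 3183 CPM with miR-Exo (-0.44 ± 0.06) and Mgp, matrix Gla protein, which inhibits calcification, at 501, 570.2 and 652 CPM with NPPC-Exo and 399.7, 428 and 406 CPM with miR-Exo (-0.48 ± 0.10). The list thus held both promoters and inhibitors of calcification, and all 4 had groups apart. Of 17 progenitor and mesenchymal markers 5 were lower and 1 higher. Thy1 was at 841, 879 and 904 CPM with NPPC-Exo and 697, 702 and 697 CPM with miR-Exo (-0.32 ± 0.04, adjusted p = 0.000158), and Grem1, a BMP antagonist, was the member that rose, at 958, 902 and 889.8 CPM with NPPC-Exo and 1233, 1199 and 1244 CPM with miR-Exo (0.42 ± 0.05, adjusted p = 0.000403).

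Signalling genes moved in a mixed way. Of 38 TGF-beta and BMP genes 9 fell and 3 rose. When scaled by library size alone 5 fell and 4 rose, and the median turned from -0.06 to 0.03. There were 4 falls without NPPC-Exo library 2, 2 without miR-Exo library 2, 5 rises without NPPC-Exo library 1 and 1 rise without miR-Exo library 1. Tgfbr1, a receptor of TGF-beta, was at 83.4, 91.9 and 84.6 CPM with NPPC-Exo and 59.9, 55.1 and 65.9 CPM with miR-Exo (log2 fold change -0.52 ± 0.07, adjusted p = 0.000389), and Ccn2, a target of that pathway, at 7521, 7665 and 8374 CPM with NPPC-Exo and 6781, 6949.8 and 6958 CPM with miR-Exo (-0.19 ± 0.04, adjusted p = 0.00913). The call of Ccn2 was lost when scaled by library size alone (adjusted p = 0.102). Of 31 Wnt and Notch genes 4 fell and 1 rose, although the list's median was 0.33 and 3 fell and 4 rose when scaled by library size alone, and 3 fell and 7 rose with the replicate number as a block in the 6 libraries. Wnt5a was at 25.4, 24.4 and 24.2 CPM with NPPC-Exo and 16.5, 14.2 and 15.7 CPM with miR-Exo (-0.67 ± 0.08, adjusted p = 0.000195) and Dkk3, a Dickkopf relative, at 31.2, 31.7 and 32.2 CPM with NPPC-Exo and 18.5, 20.8 and 22.7 CPM with miR-Exo (-0.62 ± 0.09). Both were lower in all miR-Exo libraries, as was Wls above. Of 27 AP-1 and immediate early genes 4 were higher and 0 lower (median 0.41): Fos, Atf3 and Dusp4, described above, and Jun, at 29.7, 22.4 and 18.9 CPM with NPPC-Exo and 58.6, 31.4 and 30.6 CPM with miR-Exo (0.76 ± 0.22, adjusted p = 0.0464). Jun did not pass without NPPC-Exo library 2, NPPC-Exo library 3 or miR-Exo library 1 (adjusted p = 0.138, 0.151 and 0.171, in that order). With only the 6 libraries fitted Jun did not pass either (adjusted p = 0.133). The count was 8 without NPPC-Exo library 1, 9 without the library numbered 1 of both groups, 10 with the replicate number as a block in the 6 libraries (with 1 lower) and 7 when scaled by library size alone.

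Of 29 cytokines, chemokines and secreted inflammatory genes 1 rose and 2 fell, a share of 10.3%, close to the 10.7% of all genes, and 0 rose and 1 fell with the replicate number as a block in the 6 libraries. Of 31 interferon and antigen presentation genes 4 rose and 2 fell, with 2 rises without miR-Exo library 2 or miR-Exo library 3, 0 with only the 6 libraries fitted, and 2 rises and 1 fall with the block in those 6. Ptgs2, cyclooxygenase 2, was at 216, 226 and 226 CPM with NPPC-Exo and 137, 157 and 190.2 CPM with miR-Exo (log2 fold change -0.46 ± 0.09, adjusted p = 0.00514). Its groups did not overlap. Of 21 NF-kB subunits and feedback genes 2 rose and 1 fell, Nfkbiz, an inducible co-activator, at 21.3, 24.5 and 25.6 CPM with NPPC-Exo and 30.2, 33.7 and 42.5 CPM with miR-Exo (0.58 ± 0.11) and Birc3, a ubiquitin ligase of TNF signalling, at 4.55, 3.92 and 4.43 CPM with NPPC-Exo and 2.97, 2.32 and 2.33 CPM with miR-Exo (-0.76 ± 0.15) among them. Of 30 glycolysis and hypoxia genes 7 fell and 1 rose. When scaled by library size alone 4 fell and 2 rose, and the median turned from -0.06 to 0.02. There were 4 falls without NPPC-Exo library 2, NPPC-Exo library 3 or miR-Exo library 1. Ca9, a hypoxia-induced carbonic anhydrase used as a marker of the disc core, was at 513, 517 and 584 CPM with NPPC-Exo and 388, 385 and 399 CPM with miR-Exo (-0.46 ± 0.07, adjusted p = 0.00162).

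Genes by which cells take up vesicles and water also moved. Of 24 uptake and endocytosis genes 5 fell and 1 rose, with 2 or 3 falls without any 1 library other than NPPC-Exo library 1 and 2 when scaled by library size alone. Sdc2, a heparan sulphate proteoglycan that binds vesicles and growth factors, was at 809, 820.3 and 878 CPM with NPPC-Exo and 600.0, 587 and 608 CPM with miR-Exo (log2 fold change -0.48 ± 0.05, adjusted p = 4.95e-05), and Cav1, the coat protein of caveolae, at 619, 647 and 672 CPM with NPPC-Exo and 497, 518 and 529.9 CPM with miR-Exo (-0.33 ± 0.05, adjusted p = 0.00191). Aqp1, a water channel of disc cells, was at 738, 848 and 829 CPM with NPPC-Exo and 426, 487 and 448 CPM with miR-Exo (-0.83 ± 0.07, adjusted p = 1.5e-05), and Slc6a6, the taurine transporter for osmotic balance, at 352, 379 and 344 CPM with NPPC-Exo and 301, 263 and 295 CPM with miR-Exo (-0.32 ± 0.06, adjusted p = 0.00285). All miR-Exo libraries of the 4 genes were below all NPPC-Exo libraries. Of 22 neurotrophin and nerve guidance genes 3 rose and 3 fell. Ntn4, a netrin, was at 35.6, 31.9 and 39.3 CPM with NPPC-Exo and 68.7, 67.0 and 66.8 CPM with miR-Exo (0.92 ± 0.08, adjusted p = 1.5e-05), and Sema3a, a repellent of axons, at 24.2, 27.7 and 24.5 CPM with NPPC-Exo and 16.3, 17.5 and 18.7 CPM with miR-Exo (-0.54 ± 0.10, adjusted p = 0.00383).

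Some markers of other cell types moved with the groups. The 6 skeletal muscle markers in the table summed to 94.3 to 97.3 CPM with NPPC-Exo and 58.3 to 64.0 CPM with miR-Exo, nearly all of it Acta1, at 82.9, 84.9 and 86.1 CPM with NPPC-Exo and 55.1, 49.4 and 52.4 CPM with miR-Exo, which did not pass (-0.69 ± 0.21, adjusted p = 0.0532), while Tnni2 had no counts. With only the 6 libraries fitted, Acta1 passed as lower (adjusted p = 0.00083). Trim63 rose although the summed muscle markers were lower. The 6 Schwann cell and neuron markers summed to 10.6 to 12.8 and 19.8 to 22.7 CPM, from S100b (0.93 ± 0.13) and Tubb3 (0.95 ± 0.14). Macrophage markers summed to 7.74 to 9.69 and 10.2 to 11.5 CPM, of which Cd14 alone exceeded 1 FPKM. Endothelial markers summed to 155 to 174 and 159 to 165 CPM. Whether these shifts have a part in the differences above was not tested.

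In the erastin libraries, which share no sample with the comparison, many of the same genes differed between the 2 kinds of exosome. There 4906 genes (31.3%) passed, 2439 (15.6%) higher and 2467 (15.8%) lower. The comparisons with and without erastin came from 1 fit, in which all 12 libraries set the spread of each gene. Their calls were therefore not made independently. Of the 649 genes higher without erastin 377 were higher with it (58.1% of the first list and 15.5% of the second), and of the 1020 lower 633 were lower (62.1% and 25.7%). The direction was the opposite, and passed, for 30 of the higher and 44 of the lower genes. The rise of Pla2g7 came again (2.47 ± 0.16 with erastin), as did those of Cpt1b (2.19 ± 0.13), Tgm2 (1.17 ± 0.06) and Cp (2.52 ± 0.09), and the falls of Tax1bp3 (-1.56 ± 0.07), Wls (-1.21 ± 0.05), Scd2 (-1.25 ± 0.06), Bak1 (-0.87 ± 0.06) and Aqp1 (-1.98 ± 0.07). Of the lists above, the 7 rises of fatty acid oxidation were 14 with erastin, the 8 falls of mitosis were 24, and the 9 falls of contractile genes were 28. In some lists the balance of rises and falls was the other way with erastin: iron uptake, storage and sensing went from 1 rise and 4 falls to 10 and 0, and glycolysis and hypoxia from 1 and 7 to 13 and 4. These counts stand beside 31.3% of all genes called with erastin and 10.7% without it.

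A test of the difference between both contrasts passed for 2006 of all genes (12.8%) and for 447 of the 1669 (26.8%). Slc7a11 is an example with opposite signs: with erastin it was at 14.6, 13.2 and 14.5 CPM with NPPC-Exo and 17.5, 19.7 and 17.5 CPM with miR-Exo (log2 fold change 0.37 ± 0.08, adjusted p = 0.0023), so it was lower with miR-Exo in unstressed cells and higher in erastin-treated cells (difference 0.95 ± 0.11, adjusted p = 0.000336). Slc11a2, the ferrous iron importer, was at 46.6, 44.7 and 48.2 CPM with NPPC-Exo and 36.6, 39.6 and 38.5 CPM with miR-Exo without erastin and 95.8, 110.0 and 99.8 CPM with NPPC-Exo and 120.5, 125 and 119 CPM with miR-Exo with it (difference 0.53 ± 0.09, adjusted p = 0.0021). Its fall without erastin did not pass when scaled by library size alone (adjusted p = 0.064), with the replicate number as a block in the 6 libraries (0.0513) or without the library numbered 1 of both groups (0.0679). Mgp (0.44 ± 0.10 with erastin, difference 0.92 ± 0.14) crossed in the same way. Gdf15, which rose without erastin, was at 3.85, 3.90 and 4.56 CPM with NPPC-Exo and 1.24, 0.616 and 3.10 CPM with miR-Exo with it (log2 fold change -1.32 ± 0.53, adjusted p = 0.0774, difference -3.33 ± 0.75). Col2a1, which did not pass without erastin, was at 202, 223 and 255 CPM with NPPC-Exo and 63.5, 56.6 and 83.8 CPM with miR-Exo with it, a fall in all miR-Exo libraries (log2 fold change -1.74 ± 0.20, difference -1.74 ± 0.28, adjusted p = 0.0023). The fall of Cdkn1b was larger with erastin, at 46.1, 54.5 and 51.3 CPM with NPPC-Exo and 16.1, 13.7 and 14.1 CPM with miR-Exo (-1.79 ± 0.14, difference -1.15 ± 0.19, adjusted p = 0.00277). Acta2 fell further too (-0.91 ± 0.06, difference -0.64 ± 0.08), whereas Mylk, higher without erastin, did not pass with it (-0.07 ± 0.07, adjusted p = 0.478, difference -0.64 ± 0.10).

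**Figure D5:**
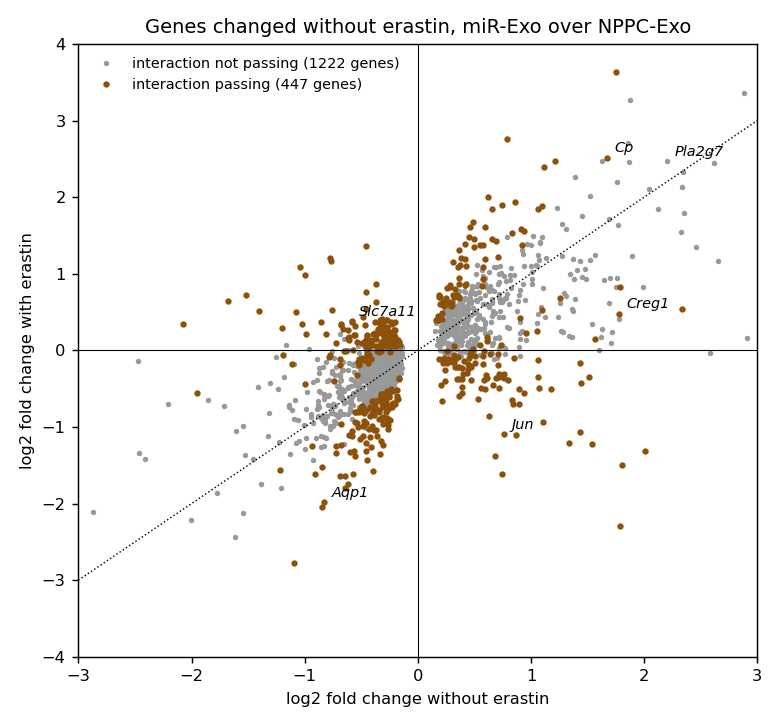
Log2 fold change of miR-Exo over NPPC-Exo without erastin (horizontal) and with erastin (vertical) for the 1669 genes changed without erastin, with the 447 whose difference between both contrasts passed in brown, the 1222 others in grey and a dotted line of equality. Most genes lie in the quadrants of equal sign, and Slc7a11 lies among those of opposite sign. The axes leave out 56 genes beyond 3 or 4 log2 units.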

How the data were processed

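The authors' deposited table held, per gene and library, whole read counts and FPKM (fragments relative to gene length and library depth), of which counts gave every test and the deposited FPKM only levels per length and a comparison of settings. The submitters' processing notes name StringTie and the build mRatBN7.2, the aligner is not given in the sources used here, and the kit marked strand but how counting used it is not given. Of counts from 1 to 20, 57.3% were even, and halving them gave 1733 changed genes.

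Of 21071 genes, 15650 passed edgeR's filterByExpr. With R 4.3.3 and edgeR 4.0.16, counts were scaled by TMM, group means of all 12 libraries were fitted, and the contrast of miR-Exo minus NPPC-Exo without erastin was tested by the quasi-likelihood test with Benjamini-Hochberg adjustment over all genes tested (0.05). SE is the size of the log2 fold change divided by the square root of the F statistic of that test. Its spread was estimated over all 12 libraries, with n = 3 libraries a group. CPM is counts relative to the scaled library size. Since nothing shows the libraries of a group to be separate cultures, p-values measure the spread between these libraries, which may be technical. Libraries of a group differed by a chi-square of 19.0 to 57.5 per gene, more than counting noise, so each counted as 1 replicate. Deviations of libraries of the same number correlated at 0.400, 0.212 and 0.118 over 10162 genes. Those of different numbers ran from -0.318 to 0.205, the highest for NPPC-Exo library 3 with miR-Exo library 2. Pairing was thus clear only for library 1, and a fit with the number as a block was also made.

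Settings tried were RLE, upper-quartile and library-size scaling, other filters, DESeq2 1.42.0, limma 3.58.1 on log2(FPKM + 1 or 0.1), the 6 libraries alone, the block, and leaving out each library. Genes were named by a rule. Of genes that passed, it took the 12 largest changes each way with at least 2 CPM in the higher group. These also needed a symbol that is not a placeholder and groups that do not overlap. The rule further took the 10 most abundant genes that passed, up to 4 passing members of each of 58 gene lists by adjusted p, and genes fixed by interest. Genes named outside it were chosen after their values were seen. The comparison, its lists and its rule were chosen with earlier results of these data known. Promoters and microRNAs were matched by symbol to RefSeq (GRCr8): 11084 of the 15650 genes and 18 of 55 microRNA genes. Some genes of the rule are not reported here.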

Additional observations from a re-analysis of the deposited data

Results flagged for a closer look

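The effect of miR-Exo over NPPC-Exo differed between cells with and without erastin for 447 of the 1669 genes changed without it, by edgeR's quasi-likelihood test of the difference (adjusted p under 0.05), where 12.8% of all genes tested passed. Values here are differences of log2 fold changes, with erastin minus without, for the genes named in the text that passed, and no explanation of them was tested.

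Among stress and immediate early genes the difference was negative for Gdf15 (-3.33), Jun (-1.86), Trib3 (-1.03), Gadd45a (-0.57) and Hspb8 (-0.48), and positive for the heat-shock genes Hsp90ab1 (0.20) and Hspa8 (0.34). Differences were negative for Col2a1 (-1.74), Sox9 (-1.12), Hapln1 (-0.70) and Enpp1 (-0.96), as they were for the fibrous matrix and adhesion genes Col1a1 (-0.98), Thbs1 (-0.47), Ccn2 (-0.44), Nid1 (-0.29), Itgb1 (-0.29) and Thy1 (-0.25). The contractile genes named here shared that sign, with Acta1 (-1.20), Actg2 (-1.001), Mylk (-0.64), Acta2 (-0.64) and Tagln (-0.57). Of these, Col2a1, Sox9, Col1a1 and Acta1 did not pass without erastin, nor did the protease inhibitor gene Timp3 (-0.82).

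Differences were also negative for the cell cycle genes Cdkn1b (-1.15) and Ccnd1 (-0.45), for the water, osmolyte and vesicle-binding genes Aqp1 (-1.15), Slc6a6 (-0.86) and Sdc2 (-0.63), for the lipid genes Pdk4 (-0.57), Scd2 (-0.31) and Idi1 (-0.29), and for Creg1 (-1.30), Dkk3 (-1.12), Gem (-0.95), Il1rl1 (-1.03), Serpinf1 (-0.51), Gsta1 (-0.44), Tax1bp3 (-0.34) and Arf4 (-0.26). The iron and cystine transport genes named here that passed had positive differences: Slc7a11 (0.95), Cp (0.85), Slc40a1 (0.78) with its neighbouring row NEWGENE_620180 (0.79), Slc11a2 (0.53) and Tfrc (0.47). Positive differences stood too for Mgp (0.92), Plin2 (0.51), Bnip3 (0.38), Timp1 (0.40), Adamts5 (0.53), Cd44 (0.36), Tgfbr1 (0.34) and Gucy1b1 (0.51), for the inflammatory genes Ptgs2 (0.58), Nfkbiz (0.51), Il1r1 (0.71) and Ciita (1.39), and for the nerve genes S100b (0.62), Sema3a (0.65) and Ntn4 (0.45).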

How the results depend on the processing

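The count of 1669 changed genes was 1560 with the replicate number as a block over all 12 libraries, which changed the call of no gene named in the text and no count over all genes by over 1.5 times. With the block in the 6 libraries alone, added after the data were seen, 1501 genes changed, 736 higher and 765 lower, and Col1a1 and Acta1 passed while Cdkn1c and Slc11a2 did not. Leaving out 1 library at a time gave 970 to 1854 changed genes, 359 to 845 higher, 611 to 1009 lower and 161 to 322 of at least 2-fold, with 679 to 922 changed the same way with erastin. The direction of the calls depended on the scaling: library size alone gave 1264 higher and 576 lower, log2(FPKM + 1) 1106 and 537, and log2(FPKM + 0.1) 1116 and 526. On log2(FPKM + 1) the falls of Acta2, Tagln, Ccn2, Bgn, Slc11a2, Pdia3, Hsp90b1, Birc3 and Calr did not pass. Changes of at least 2-fold numbered 36 on log2(FPKM + 1), 49 with a mean of at least 5 CPM and 137 with only the 6 libraries fitted. That last fit called 1129 genes, 420 higher and 709 lower. In it Chac1, Cdkn1c, Jun and Calr did not pass, while Acta1 did. Without the library numbered 1 of both groups, a choice made after the libraries were seen, 679 genes were lower. DESeq2 called 2205 genes.

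Signs turned only for genes that did not pass, among the genes named here and the settings run. Scaling by library size alone gave Acsl4 0.0773, Sox9 0.0236 and Hspa5 0.0339 on the log2 scale. On log2(FPKM + 1) these were 0.0716, 0.0137 and 0.0308, and on log2(FPKM + 0.1) 0.0735, 0.0146 and 0.0308. Acsl4 was 0.00491 with only the 6 libraries, 0.00422 with the block in those 6, and 0.0148 without the library numbered 1 of both groups, where Acan was -0.00554. Col2a1 was -0.00616 with a filter of 1 CPM in 3 libraries. Leaving out 1 library gave ranges of -0.295 to 0.144 for Sox9, -0.308 to 0.145 for Gpx4, -0.159 to 0.285 for Col2a1, -0.0312 to 0.0253 for Acsl4, -0.0264 to 0.0998 for Acan and -0.0144 to 0.299 for Col1a1. The cause was not tested. Depth limits Mir222, whose 1 to 3 counts a library are at or under the floor of 3, so that a difference was not detectable.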

Other observations

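Some groups of genes were put together after their values had been seen, so their counts are descriptions and support nothing. Of all genes tested 10.7% passed, 4.15% higher and 6.52% lower. In signalling by nitric oxide and cGMP, which relaxes smooth muscle, 3 of 12 genes tested were higher and 2 lower. Gucy1a1 and Gucy1b1, the partners that form the soluble guanylate cyclase, both rose, Gucy1b1 being at 23.4, 24.5 and 23.2 CPM with NPPC-Exo and 36.8, 38.0 and 41.5 CPM with miR-Exo (log2 fold change 0.71 ± 0.07, adjusted p = 5.59e-05), and the groups did not overlap. Of 8 receptors of the interleukin-1 family 4 were lower and 0 higher. Il1r1, the signalling receptor of interleukin-1, was at 90.3, 93.3 and 89.3 CPM with NPPC-Exo and 52.8, 50.2 and 56.2 CPM with miR-Exo (-0.78 ± 0.06, adjusted p = 8.18e-06), and its partner chain Il1rap was at 116, 116 and 98.9 CPM with NPPC-Exo and 86.1, 84.5 and 83.9 CPM with miR-Exo (-0.38 ± 0.07, adjusted p = 0.00344). Both were lower in all miR-Exo libraries. Il1rl1, the receptor of interleukin-33, changed by -0.58 ± 0.09 and Il1rl2, a receptor of interleukin-36, by -0.74 ± 0.06.

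Of 21 genes of fibroblast growth factor signalling and of its ETS factors and feedback inhibitors, also grouped after their values were seen, 8 were lower and 1 higher. Over all genes 6.52% were lower and 4.15% higher. The factor gene Etv5 was at 61.4, 59.4 and 60.5 CPM with NPPC-Exo and 34.5, 29.9 and 33.9 CPM with miR-Exo (-0.88 ± 0.07, adjusted p = 7.78e-06), Etv4 at 7.11, 7.08 and 5.25 CPM with NPPC-Exo and 2.66, 2.85 and 3.45 CPM with miR-Exo (-1.12 ± 0.15, adjusted p = 0.000462) and the inhibitor gene Spry4 at 50.9, 50.0 and 45.6 CPM with NPPC-Exo and 31.8, 33.0 and 32.5 CPM with miR-Exo (-0.59 ± 0.08, adjusted p = 0.000376). Their groups did not overlap, and the member that rose was Dusp4. In retinoid handling 2 of 12 were higher and 2 lower: Aldh1a2, which makes retinoic acid, was at 5.04, 5.82 and 5.30 CPM with NPPC-Exo and 1.85, 2.98 and 3.29 CPM with miR-Exo (-0.99 ± 0.20, adjusted p = 0.00819), while Dhrs3, which returns its precursor to storage, was at 27.5, 30.8 and 36.8 CPM with NPPC-Exo and 54.7, 56.8 and 51.6 CPM with miR-Exo (0.78 ± 0.10, adjusted p = 0.000475).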
